A study of Mus musculus with 4 samples.

Results

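The genes described here are 34 named genes of cholesterol and fatty acid synthesis, chosen by symbol from the 55416 genes of the count tables. The rule uses no measured value, but earlier results of these data were known when it was made. They comprise 6 genes that make fatty acids and their building blocks, 7 desaturases and elongases, 7 enzymes of the mevalonate and isoprenoid steps, and 10 enzymes that turn farnesyl diphosphate into cholesterol. The others are the regulators Srebf1, Srebf2 and Insig1, and Vldlr, a lipoprotein receptor. Each symbol matched 1 gene. Levels are unique molecular identifiers (UMIs, counted molecules) summed over all cells of a class in a library and given as counts per 1e6 UMIs of that class (CPM).

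Cells came from the femoral epiphysis, the end of the thigh bone, of wild-type mice on postnatal days 7, 8, 10 and 12. Each day was 1 droplet single-cell 3' library. Every group is wild-type tissue with no treatment named, and the groups differ in age and in library. The labels state neither strain nor sex nor how many animals a library came from, and no deletion, transgene or agent is named. After filtering, 11309, 11464, 10028 and 16254 cells remained on the 4 days. Library totals over all barcodes, before filtering, ran from 44218720 to 169323978 UMIs. Median UMIs per kept cell were 3103, 3168.5, 7706.5 and 6563.5.

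Cells were put into classes by marker genes that hold none of the 34 genes. The chondrocyte gate, on Col2a1, Acan, Sox9 and other cartilage genes, held 10455, 8168, 552 and 3981 cells on days 7, 8, 10 and 12, so the labelled cartilage was present on each day and was a small part of the day 10 library. Hypertrophic chondrocytes were chondrocytes that also passed a gate on Col10a1, Ihh, Pth1r, Panx3, Sp7, Runx2, Mef2c, Alpl and Mmp13, which includes prehypertrophic cells. They numbered 896, 744, 115 and 1637 cells on the 4 days. Most of them, 788, 626, 72 and 1305 cells, lay below 10 Col10a1 UMIs per 10000, the split used further on. Cells within 20% of the gate's cut numbered 286, 233, 25 and 379. Osteoclasts numbered 30, 81, 145 and 982 cells, and erythroid cells 17, 28, 1917 and 927. Between 3.37% and 16.5% of cells in a library passed more than 1 gate without a clear lead and were set aside. Pairs of libraries shared from 62 to 240 cell barcodes, at most 2.39% of the smaller library.

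Cholesterol is built from acetyl-CoA through mevalonate, isoprenoids, squalene and lanosterol, and fatty acids are built from the same acetyl-CoA. Transcription of both sets of enzymes is driven by sterol regulatory element binding proteins, encoded by Srebf1 and Srebf2, which the Insig proteins hold in the endoplasmic reticulum when sterols are plentiful. Growth plate chondrocytes divide, then enlarge as hypertrophic cells and express Col10a1, while osteoclasts resorb mineralised matrix and erythroid precursors lose most of their organelles as they mature.

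Promoter sequence is shown for members whose levels were higher in hypertrophic chondrocytes, because a short sterol element is the known route by which these genes are regulated together. RefSeq windows (build GRCm38.p6; the count tables name GRCm39) matched 28 of the 34 members. The core letters CACNCCAC, searched on both strands of the 250 bases before each start, lay in 4 of 28 members (14.3%) and in 6.05% of 27025 genes. The letters CCAAT lay in 23 of 28 (82.1%) against 37.5% of genes, and GGGCGG in 22 of 28 (78.6%) against 35.4%. Matches of the 3 motifs can overlap at their ends and were counted separately. The first 3 stretches hold the core and lie upstream of every annotated start in the window. The last 2 have no core and come from the sterol enzymes with the highest hypertrophic fold among those with CCAAT upstream of every annotated start. Capitals mark CACNCCAC or CCAAT on either strand, where ATTGG is CCAAT read on the other strand. A match is a run of letters and not a measured binding site.
Hmgcs1, chr13:119690155-119690282, plus strand: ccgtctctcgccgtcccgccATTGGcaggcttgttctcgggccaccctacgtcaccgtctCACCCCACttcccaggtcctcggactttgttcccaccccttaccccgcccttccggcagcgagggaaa
Acat2, chr17:12960839-12960966, minus strand: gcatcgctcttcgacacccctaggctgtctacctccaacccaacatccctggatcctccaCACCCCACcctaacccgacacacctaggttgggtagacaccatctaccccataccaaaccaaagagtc
Idh1, chr1:65179182-65179261, minus strand: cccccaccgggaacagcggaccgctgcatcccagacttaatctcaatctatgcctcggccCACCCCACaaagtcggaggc
Ebp, chrX:8193513-8193627, minus strand: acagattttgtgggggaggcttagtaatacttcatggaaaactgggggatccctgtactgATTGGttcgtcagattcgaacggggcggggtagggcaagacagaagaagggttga
Sc5d, chr9:42264301-42264384, minus strand: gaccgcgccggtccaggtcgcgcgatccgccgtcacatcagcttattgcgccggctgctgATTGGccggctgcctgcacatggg

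Of the classes ranked, most members had their highest level in hypertrophic chondrocytes. Among classes with at least 50 cells in a library, this class ranked first for 24 of 34 members on day 7 (4 classes), 24 on day 8 (8 classes), 24 on day 10 and 26 on day 12 (18 classes each). Dividing chondrocytes were counted within the other chondrocytes and not ranked on their own. The sterol enzyme sum of dividing chondrocytes, given below, was above the hypertrophic one on days 7, 8 and 12 and below it on day 10. The share of all genes ranking first in hypertrophic chondrocytes is not given. Summed over the 34 members, the level was 3553, 3608, 4335 and 4801 CPM in hypertrophic chondrocytes on days 7, 8, 10 and 12. In the other chondrocytes it was 2386, 2124, 1572 and 2307 CPM, and in osteoclasts 731, 682, 720 and 858 CPM. The hypertrophic sums therefore lay above both on every day.

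Within the ranked classes, the members that ranked elsewhere on day 7 were highest in other chondrocytes (5) or fibroblasts (5). On day 8, 4 were highest in other chondrocytes, 3 in mural cells, 2 in macrophages and 1 in osteoclasts. Examples from days 8, 10 and 12 follow. Elovl6, which elongates saturated and monounsaturated fatty acids, was highest in B lineage cells on day 10 (198 CPM) and day 12 (234 CPM). Elovl5, an elongase of polyunsaturated fatty acids, was highest in endothelial cells on those days, at 166 and 125 CPM. Elovl1, which makes very long saturated chains, was highest in osteoclasts on days 8, 10 and 12, at 105, 82.8 and 69.8 CPM. Idh1, a cytosolic source of NADPH, was highest in macrophages on the same days, at 139, 244 and 223 CPM. Vldlr was highest in osteoblasts on days 10 and 12 (274 and 230 CPM), and Srebf2 in dendritic cells (129 and 116 CPM). Fdps, which makes farnesyl diphosphate, gave 0 to 3 UMIs per library in hypertrophic chondrocytes. Its level there was at most 0.211 CPM. Fdps has near-identical processed pseudogenes that can share its reads, so its level is uncertain.

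**Figure D1:**
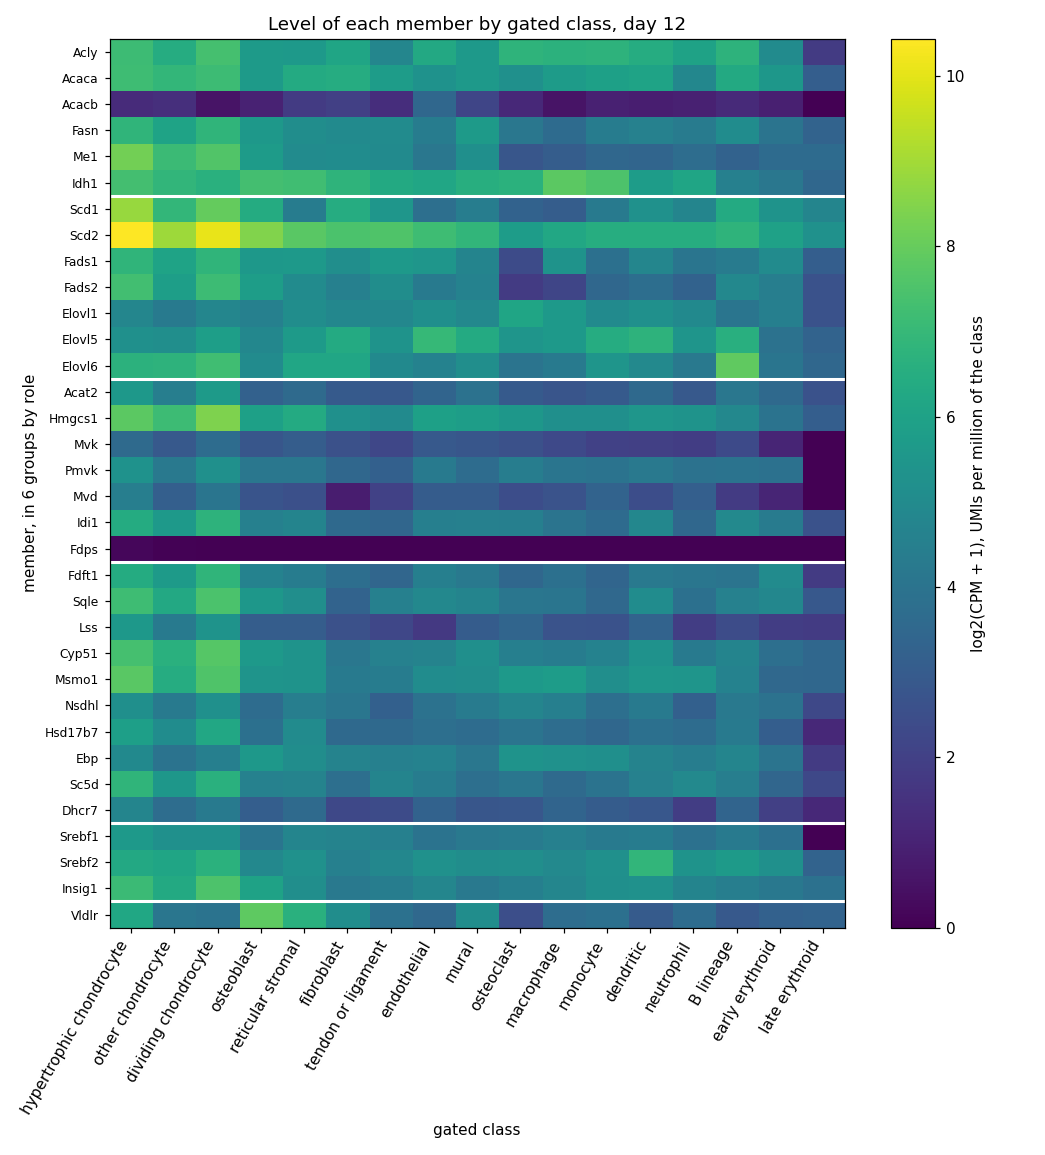
Level of each of the 34 members (rows, in 6 groups by role, separated by white lines) in 17 gated classes (columns) of the day 12 library, coloured by log2(CPM + 1). Levels are bright in the hypertrophic and dividing chondrocyte columns for most rows, Elovl6 is brightest in B lineage cells, Vldlr in osteoblasts and Fdps is near 0 throughout.

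The first comparison asked which members differ between hypertrophic and other chondrocytes of the same library. Counts were summed per class and library and tested with edgeR's quasi-likelihood test, with library as a block and Benjamini-Hochberg adjustment over 15394 genes. Of the 33 members tested, 27 were higher in hypertrophic chondrocytes at an adjusted p under 0.05 and 0 were lower. Over all genes, 19.5% were called higher and 18.5% lower. The median log2 fold change was 0.86 over the members and -0.03 over all genes.

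The desaturases Scd1, Scd2 and Fads2 had the highest folds among the enzymes. Scd1, which makes monounsaturated fatty acids, stood at 235, 257, 571 and 453 CPM in hypertrophic chondrocytes on days 7, 8, 10 and 12. In the other chondrocytes it stood at 56.3, 66.5, 65.5 and 121 CPM, so the groups did not overlap. The log2 fold change was 2.38 ± 0.20 (SE, 4 libraries; adjusted p = 0.000102 by edgeR). Scd2, the related desaturase, read 837, 924, 1387 and 1384 CPM against 319, 355, 349 and 476 CPM, again without overlap. The fold change was 1.71 ± 0.11 on the log2 scale (SE, 4 libraries; edgeR adjusted p = 3.76e-05). Fads2, the delta-6 desaturase of polyunsaturated fatty acids, read 107, 102, 134 and 155 CPM against 38.1, 41.3, 33.4 and 56.0 CPM. Its log2 fold change was 1.69 (edgeR adjusted p = 4.95e-05), and that of the delta-5 desaturase Fads1 was 0.92 (adjusted p = 0.000241). The elongases differed from the desaturases in size. Elovl1 was called at 0.48 (adjusted p = 0.0133), while Elovl5 read 0.04 (adjusted p = 0.761) and Elovl6 read -0.17 (adjusted p = 0.267), lower in 4 of 4 libraries.

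Of the 6 genes of fatty acid synthesis, 4 were called higher. Acly makes cytosolic acetyl-CoA from citrate, Fasn builds the fatty acid chain, and Me1 and Idh1 supply NADPH. Their log2 fold changes were 0.86 for Acly, 0.78 for Fasn, 1.04 for Me1 and 0.67 for Idh1, each higher in 4 of 4 libraries. Me1 read 172, 187, 232 and 293 CPM in hypertrophic and 105, 109, 113 and 139 CPM in other chondrocytes. Acaca, the carboxylase that makes malonyl-CoA, had a log2 fold change of 0.20 ± 0.07 (SE, 4 libraries; edgeR adjusted p = 0.0691). Acacb, its mitochondrial relative, was below 4 CPM in both classes on every day.

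All 6 tested mevalonate and isoprenoid genes were higher in hypertrophic chondrocytes. Acat2, which joins 2 acetyl-CoA, read 58.8, 67.9, 43.0 and 45.7 CPM on the 4 days against 34.1, 29.4, 13.8 and 21.0 CPM. The log2 fold change of Acat2 was 1.28 ± 0.13 (SE, 4 libraries; edgeR adjusted p = 0.000247). Hmgcs1, the synthase that makes HMG-CoA, read 219, 194, 110 and 224 CPM against 172, 147, 42.8 and 142 CPM. These ranges overlapped across days, but Hmgcs1 was higher in hypertrophic cells within each library, with a log2 fold change of 0.80 (edgeR adjusted p = 0.00488). Pmvk and Mvd, which carry mevalonate to isopentenyl diphosphate, were at 1.11 and 1.21 on the log2 scale.

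Of the 10 later sterol enzymes, 9 were called higher. Ebp, the sterol isomerase, read 35.3, 44.7, 27.5 and 29.6 CPM in hypertrophic and 16.8, 17.4, 13.9 and 14.9 CPM in other chondrocytes, and the ranges did not overlap. Its log2 fold change was 1.24 ± 0.11 (SE, 4 libraries; edgeR adjusted p = 0.000122). Dhcr7, Sc5d and Lss followed, at 1.23, 1.22 and 1.22. Lss closes the sterol ring, and Sc5d and Dhcr7 act near the end of the pathway. Msmo1, a methyl oxidase acting after lanosterol, read 248, 240, 146 and 217 CPM against 184, 155, 41.9 and 88.2 CPM. Its log2 ratio within libraries went from 0.43 on day 7 to 1.80 on day 10. Cyp51, the lanosterol demethylase, was lower in hypertrophic cells on day 7 (-0.17) and higher on the other days, and was called at 0.65 (edgeR adjusted p = 0.0406). Hsd17b7, a sterol ketoreductase, was the member of this group that was not called. Its log2 ratios were -0.14, -0.04, 2.07 and 0.83 on days 7, 8, 10 and 12 (edgeR adjusted p = 0.105).

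Among the regulators, Srebf1 and Insig1 were called higher and Srebf2 was not. Srebf1 read 20.4, 18.6, 46.5 and 49.2 CPM in hypertrophic and 16.5, 16.2, 25.5 and 36.4 CPM in other chondrocytes, a log2 fold change of 0.58 (edgeR adjusted p = 0.00816). Insig1 was at 0.73 (adjusted p = 0.0120) and Srebf2 at 0.25 ± 0.12 (SE, 4 libraries; adjusted p = 0.144). Vldlr had the second highest log2 fold change of the members, 2.15 ± 0.19 (SE, 4 libraries; edgeR adjusted p = 0.000119). It read 40.1, 67.0, 85.1 and 73.5 CPM in hypertrophic chondrocytes on the 4 days and between 12.5 and 19.2 CPM in the others, with no overlap.

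**Figure D2:**
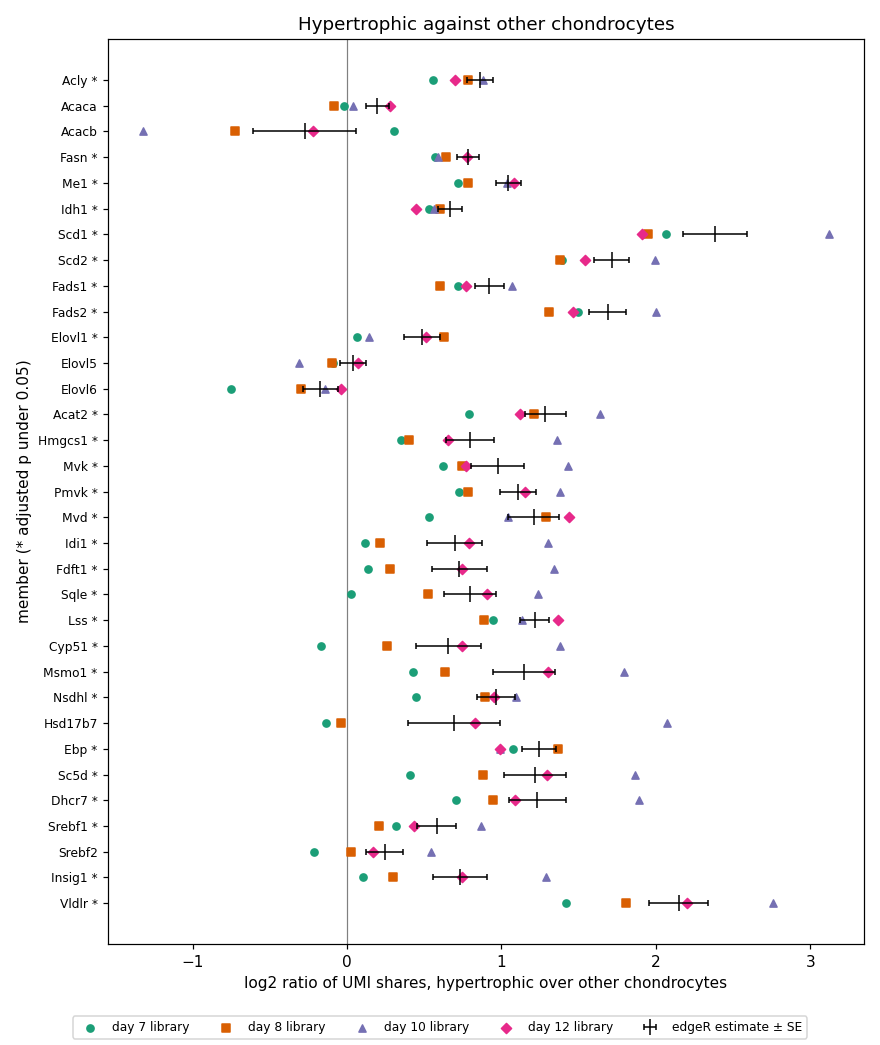
Log2 ratio of UMI shares in hypertrophic over other chondrocytes for 33 members (rows), with 1 point per library and a black bar for the edgeR estimate ± SE. The points use raw UMI totals, while the estimate includes edgeR's scaling. An asterisk marks an adjusted p under 0.05. Scd1, Vldlr, Scd2 and Fads2 lie farthest to the right, Elovl5 and Elovl6 lie at or left of 0, and for most sterol enzymes the day 7 point is the lowest or near it.

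Several measured properties moved with the hypertrophic gate. Median UMIs per cell were 6038.5, 5649.5, 20713 and 11796 in hypertrophic and 3011, 3103.5, 14131 and 7514.5 in other chondrocytes. With both classes restricted to cells of the same UMI range, 25 of 33 members were called higher and Scd1 was at 2.11. Depth was not equal within that range. The medians there were 6038.5, 5649.5, 20713 and 11792 in hypertrophic and 4003.5, 4547, 16297 and 8934 in other chondrocytes. The summed level of 9 osteoblast markers was 1162 to 2029 CPM in the hypertrophic chondrocyte class and 120 to 320 CPM in the other chondrocyte class, with no marker at 0 in either. The summed level of 10 dissociation stress genes was lower in hypertrophic cells on each day, 4636 to 10458 against 5924 to 13172 CPM. The part of the osteoblast markers and stress genes in the result was not tested. The 6 adipocyte markers summed to between 0 and 1.66 CPM in both classes. Without the library block, 12 of the 33 members were called.

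Within the hypertrophic gate, the summed levels of the sterol and the fatty acid members differed in how they went with Col10a1. Cells were split at 10 Col10a1 UMIs per 10000, and the summed level of the 17 mevalonate and sterol enzymes was 2008, 2010, 1270 and 1879 CPM above the split on days 7, 8, 10 and 12. Below it, the summed level was 1306, 1154, 882 and 1227 CPM, lower on each day. A sum weights each cell by its UMIs, so this is an order of sums and not of typical cells. The shares of cells with a UMI above and below the split are not given here. The 13 fatty acid genes read 2171, 2154, 2532 and 2826 CPM above the split and 1869, 1982, 3180 and 3184 CPM below it. They were thus higher above the split on days 7 and 8 and lower on days 10 and 12. Scd1 and Scd2 made up a large part of the fatty acid sum in the hypertrophic class as a whole. Depth also differed by day: median UMIs per cell were 5788.5, 6482, 7744 and 4650.5 above the split and 6062.5, 5428.5, 28264.5 and 12654 below it. The median globin share on day 10 was 0.981% above and 0.273% below. The part of depth and globin in these differences was not tested. No test was run on this split, and the cells above it numbered 108, 118, 43 and 332. Resting chondrocytes, gated on Ucma, Sfrp5 and other reserve zone genes, read 1170, 831, 297 and 550 CPM for the sterol enzymes.

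The share of cells with a UMI was also compared after each cell was thinned to 1000 UMIs, which left out no cell. It was higher in hypertrophic than in other chondrocytes for 27, 28, 28 and 30 of the 34 members on days 7, 8, 10 and 12, and lower for 7, 6, 5 and 3. The same count over all genes was not made, so these numbers have no background beside them. Members called higher on summed counts were among the lower ones: on day 7 Idi1 was seen in 8.82% of hypertrophic and 9.74% of other chondrocytes, and Sqle in 7.25% and 8.41%. Scd1 was seen in 14.6%, 18.8%, 30.4% and 26.9% of hypertrophic chondrocytes on the 4 days. It was seen in 4.22%, 5.08%, 6.18% and 9.85% of other chondrocytes. Neutrophils, taken as cells that should have little Scd1, gave 0.735% on day 10 and 3.43% on day 12, with median depths of 5078 and 2130 UMIs. The hypertrophic shares were above this background on both days. Unthinned, the hypertrophic shares were 53.8%, 59.0%, 67.8% and 69.0%. Msmo1 was seen in 19.6%, 19.9%, 6.09% and 14.8% of thinned hypertrophic cells and in 15.4%, 13.3%, 3.43% and 6.31% of other chondrocytes. The exact 95% binomial intervals of Msmo1 overlapped on day 10, from 2.48% to 12.1% against 1.93% to 5.60%, and cover counting error only.

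Other genes of the same pathways, 74 in all, were called less evenly in the same comparison: of 69 tested, 24 were higher and 4 were lower. Beside them, 19.5% of all genes were higher and 18.5% lower. Slc13a5, a plasma membrane citrate carrier, read 68.3, 66.6, 150 and 125 CPM in hypertrophic and 9.14, 8.84, 8.47 and 19.2 CPM in other chondrocytes. That is a log2 fold change of 3.22 ± 0.22 (SE, 4 libraries; edgeR adjusted p = 4.09e-05). In the same list of fatty acid supply genes, Slc25a1, the mitochondrial citrate carrier, was at 1.49 and Hacd1, a dehydratase of chain elongation, at 1.33. Of 8 further sterol enzymes, 4 were called higher, among them Tm7sf2 at 1.35. Of 9 genes of cholesterol uptake and transport, 4 were higher, among them the lipoprotein receptor Scarb1 (1.13). Apoe, which carries cholesterol out of cells, was lower. It read 42.9, 68.9, 14.8 and 55.4 CPM in hypertrophic and 328, 346, 70.5 and 154 CPM in other chondrocytes, a log2 fold change of -2.09. Of 8 genes of fatty acid oxidation, Hadhb was higher (0.55) and Cpt1a, which starts mitochondrial import of fatty acids, was lower (-0.71).

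The second comparison set dividing chondrocytes, gated on Mki67, Top2a and other cell cycle genes, against non-dividing ones, both outside the hypertrophic gate. Of 33 members tested, 18 were higher and 0 were lower, beside 13.8% of 12403 genes called higher and 14.1% lower. The median log2 fold change was 0.57 over the members and -0.05 over all genes. The sterol branch held most of the calls: 4 of 6 mevalonate and isoprenoid genes and 9 of 10 later sterol enzymes. In fatty acid synthesis 1 of 6 was called, and in desaturation and elongation 3 of 7.

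Acat2 had the largest difference, with levels of 57.2, 57.1, 32.5 and 50.9 CPM in dividing chondrocytes on days 7, 8, 10 and 12. Its log2 fold change was 1.12 ± 0.16 (SE, 4 libraries; edgeR adjusted p = 0.000645). Hmgcs1 read 241, 221, 68.4 and 338 CPM in dividing cells, with a log2 fold change of 0.78 (edgeR adjusted p = 0.00560). Sqle, the epoxidase that oxidises squalene, was at 0.79 and Fdft1, the squalene synthase, at 0.73. Hsd17b7, not called in the hypertrophic comparison, was at 0.68 (edgeR adjusted p = 0.0204). Elovl5 was at 0.71 ± 0.11 (SE, 4 libraries; edgeR adjusted p = 0.00107) and its log2 ratio lay between 0.79 and 0.87 in every library. The ratios use raw UMI totals and the estimate includes edgeR's scaling, so the estimate can lie outside them. Scd1 was not called, with log2 ratios of 0.46, 0.34, -0.37 and 1.27 on the 4 days (edgeR adjusted p = 0.238). Scd2 was called at 0.72 and Fads2 at 0.89.

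**Figure D3:**
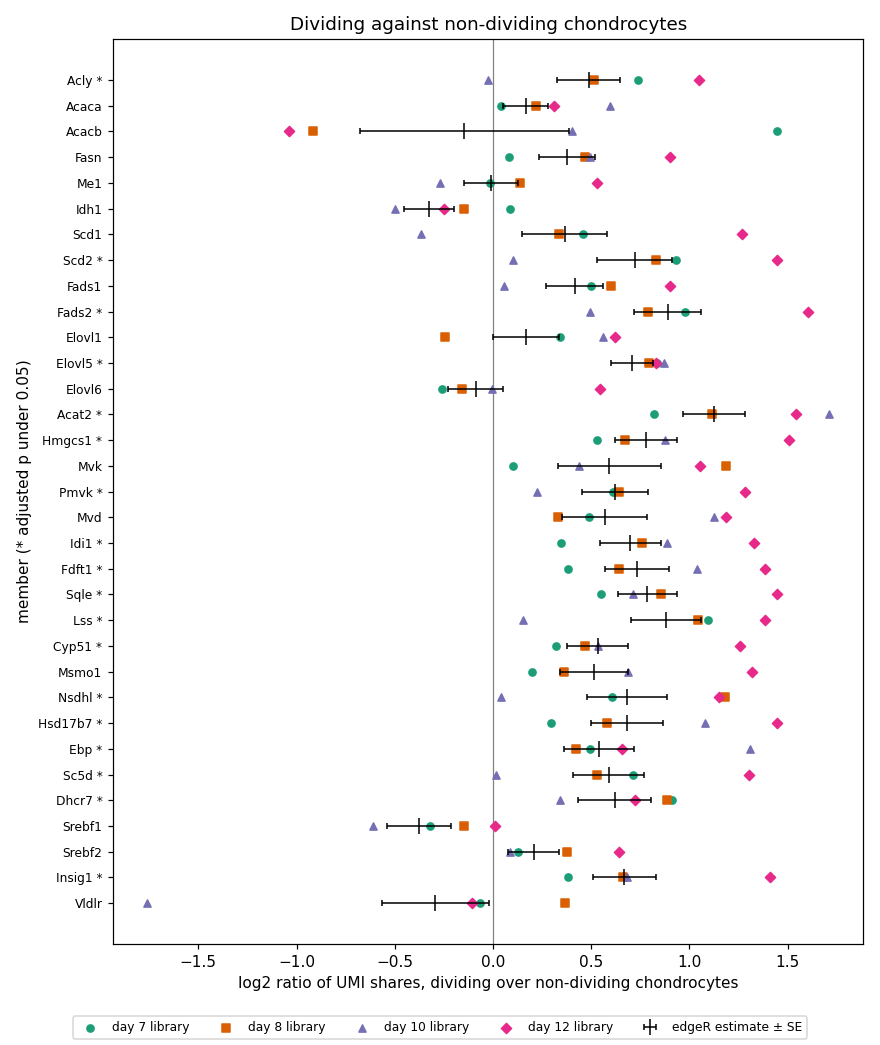
Log2 ratio of UMI shares in dividing over non-dividing chondrocytes outside the hypertrophic gate for 33 members (rows), with 1 point per library and a black bar for the edgeR estimate ± SE. The points use raw UMI totals, while the estimate includes edgeR's scaling. An asterisk marks an adjusted p under 0.05. The day 12 point lies to the right of the others for many sterol enzymes, and Elovl5 has the narrowest spread of the called members shown.

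The number of calls in dividing cells depended on the fit and on single libraries. It was 10 without the day 8 library, 9 without the day 12 library, 8 with all classes in 1 fit and 1 without the library block. The day 10 library held 34 dividing chondrocytes. Median UMIs per cell on days 7, 8, 10 and 12 were 4668, 3806, 27711.5 and 10996.5 in dividing chondrocytes. In non-dividing ones they were 2979, 3072, 13569 and 7409.5. A fit on cells of the same UMI range kept 3 libraries, days 7, 8 and 12, and its counts are not reported here. Among the other pathway genes, Lbr, a sterol reductase that is also a nuclear envelope protein, was higher by 1.85 on the log2 scale and Pdss1, of ubiquinone synthesis, by 1.31. Apoe read -1.39. Of 67 other pathway genes tested, 12 were higher and 6 lower, beside 13.8% and 14.1% of all genes.

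The third comparison set all chondrocytes against fibroblasts gated on Pi16, Dpp4 and Clec3b among others. Hypertrophic cells were 896 of 10455, 744 of 8168, 115 of 552 and 1637 of 3981 chondrocytes on the 4 days. The part of this changing mix in the ratios was not tested. Of 33 members, 27 were higher in chondrocytes and 2 were lower, beside 23.2% of 13869 genes called higher and 18.1% lower. The median log2 fold change was 1.72 over the members and 0.10 over all genes. Me1 read 115, 121, 148 and 222 CPM in chondrocytes and 27.6, 39.1, 20.2 and 32.8 CPM in fibroblasts, without overlap. Its log2 fold change was 2.68 ± 0.21 (SE, 4 libraries; edgeR adjusted p = 2.04e-06). Msmo1 read 194, 168, 72.4 and 158 CPM against 58.6, 29.3, 21.0 and 18.9 CPM, a log2 fold change of 2.58. Sqle and Lss were both at 2.51, and Insig1 at 2.40. Srebf2 was at 1.53, the largest of the comparisons in which it was tested.

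The members lower in chondrocytes were both elongases. Elovl5 had a log2 fold change of -0.64 (edgeR adjusted p = 0.00801) and Elovl1 of -0.48 (adjusted p = 0.0487), each lower in 4 of 4 libraries. Without the day 10 library neither was called, and without any other single library 1 of them was. Acacb, Idh1, Ebp and Vldlr were not called. Of 68 other pathway genes tested, 20 were higher and 13 lower, beside 23.2% and 18.1% of all genes. Scarb1 was higher by 2.95. Slc13a5 read 18.3, 17.6, 50.0 and 75.9 CPM in chondrocytes and at most 4.27 CPM in fibroblasts. Of 8 oxidation genes, 0 were higher and 4 were lower, led by Cpt1a at -2.16.

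Osteoclasts were compared with macrophages, which share a myeloid origin. Of 28 members tested, 1 was higher and 2 were lower, beside 16.3% of 9606 genes called higher and 18.1% lower. The share of members called was thus below that of all genes in both directions. Elovl1 read 52.9, 105, 82.8 and 69.8 CPM in osteoclasts on days 7, 8, 10 and 12 and 50.2, 35.5, 45.5 and 48.8 CPM in macrophages. Its log2 fold change was 0.84 ± 0.24 (SE, 4 libraries; edgeR adjusted p = 0.0208), and it was not called without the day 10 library. Median UMIs per cell on the 4 days were 11323, 9283, 4641 and 16489 in osteoclasts. In macrophages they were 10106, 6682, 18780 and 8975. The median globin share on day 10 was 0.798% in osteoclasts and 0.298% in macrophages. The part of depth and globin in this comparison was not tested. Idh1 read 34.2, 48.0, 54.6 and 99.8 CPM in osteoclasts against 133, 139, 244 and 223 CPM, a log2 fold change of -1.64 (edgeR adjusted p = 0.000255). Fads1 was listed at 0 in osteoclasts on day 7 (30 cells) and read 7.02, 3.88 and 4.29 CPM afterwards. In macrophages it read 59.0, 40.5, 56.3 and 40.0 CPM, with no overlap (edgeR adjusted p = 5.33e-05).

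None of the 10 later sterol enzymes was called between osteoclasts and macrophages. Lss came nearest, higher in 4 of 4 libraries with a log2 fold change of 0.92 ± 0.33 (SE, 4 libraries; edgeR adjusted p = 0.0572). The summed level of the 17 mevalonate and sterol enzymes was 324, 260, 233 and 311 CPM in osteoclasts and 292, 253, 230 and 282 CPM in macrophages. Other pathway genes separated the classes more often: of 59 tested, 12 were higher and 19 lower in osteoclasts, beside 16.3% and 18.1% of all genes. Of 8 tested genes of cholesterol export, esterification and LXR signalling, 7 were lower, with Nr1h3, which encodes LXR alpha, at -4.09, Abca1 at -3.52 and Apoe at -3.23. Cd36, a fatty acid transporter, was at -5.67 and Pparg at -4.39. Of the 7 oxidation genes tested, 4 were higher, led by Acadvl (1.29), and 2 were lower. Of the 6 other sterol enzymes tested, 3 were higher, among them Nus1 (1.07) and Pdss1 (0.92).

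On totals that include globin, erythroid cells had lower sterol enzyme sums than osteoclasts and macrophages on days 10 and 12. Erythroid cells were gated on Alas2, Klf1 and other red cell genes and divided by globin share. Early cells were under 50% globin UMIs and late cells at or above. Only days 10 and 12 held at least 20 cells of each, so the values are given without a test. Early cells numbered 916 and 725, and late cells 1001 and 202. The sterol enzymes summed to 170 and 196 CPM in early cells and to 36.6 and 62.5 CPM in late cells. The fatty acid genes summed to 221 and 327 CPM in early and 86.4 and 142 CPM in late cells.

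Globin UMIs make up most of a late erythroid cell's total and lower every other gene's CPM. With globin left out of the total, the sterol enzymes read 216 and 239 CPM in early and 113 and 163 CPM in late cells. The exact 95% Poisson intervals, which cover counting error only, were apart on both days, 207 to 226 against 99.8 to 128 on day 10. On the same scale the fatty acid genes read 281 and 399 CPM in early and 267 and 369 CPM in late cells. Their intervals overlapped on both days. On the full total, 3 genes chosen after their values were seen had some of the higher levels in early cells of day 10: Fads1 at 44.4 CPM, Fdft1 at 32.1 CPM and Sqle at 28.3 CPM. In late cells of that library they read 9.54, 7.12 and 3.56 CPM.

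**Figure D4:**
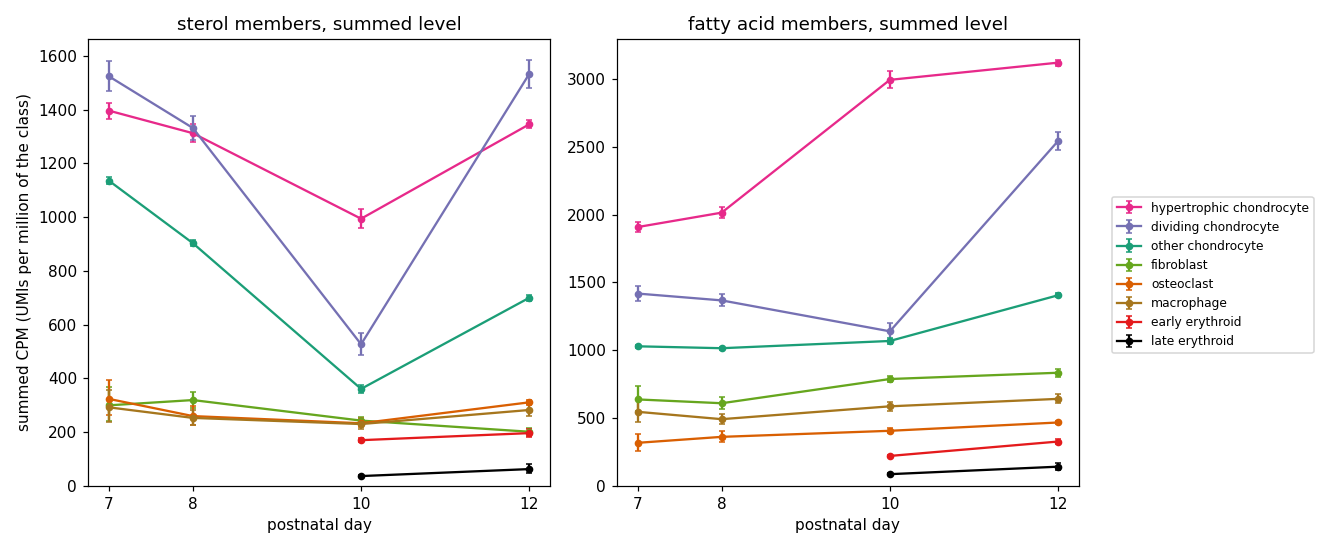
Summed level in CPM of the 17 mevalonate and sterol enzymes (left) and the 13 fatty acid genes (right) by postnatal day in 8 gated classes. Bars are exact 95% Poisson intervals on the counts of 1 library a day, and points with under 20 cells are left out. The sterol sums are lowest on day 10 in the 3 chondrocyte classes, while the hypertrophic fatty acid sum is higher on days 10 and 12 than on days 7 and 8. Scd1 and Scd2 make up a large part of that fatty acid sum.

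Age was compared as day 12 over day 7 within a class, with 1 library a day and therefore no test. Genes with at least 20 UMIs over both days were compared, and a 2-fold difference was counted. In hypertrophic chondrocytes, 2 of 33 members were at least 2-fold higher on day 12 and 1 was lower, beside 20.1% and 12.3% of 14988 genes. Idh1 went from 58.3 CPM on day 7 through 65.6 and 101 CPM to 157 CPM on day 12, a log2 ratio of 1.42. Srebf1 went from 20.4 to 49.2 CPM, a log2 ratio of 1.26. Acacb read 3.15 and 1.43 CPM. The median log2 ratio was 0.27 over the members and 0.36 over all genes, so the members' median lay below that of all genes.

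In the other chondrocytes 3 of 33 members were at least 2-fold higher on day 12 and 6 were lower, beside 17.7% and 18.4% of 17787 genes. The share of members higher was thus below that of all genes, and the share lower was near it. Idh1 went from 40.4 to 115 CPM, Srebf1 had a log2 ratio of 1.15 and Scd1 of 1.10. The 6 lower members were all enzymes of the sterol branch, with log2 ratios of Lss -1.36, Pmvk -1.26, Hsd17b7 -1.25, Idi1 -1.21 and Msmo1 -1.06. Mvd, the sixth, went from 15.8 to 7.82 CPM. The median log2 ratio was -0.21 over the members and 0.20 over all genes. With a stricter gate, which moves weakly marked hypertrophic cells into the other chondrocytes, 6 members were higher and 0 were lower. Against day 8 in place of day 7, 1 member was lower. Dissociation stress genes summed to 12362 CPM on day 7 and 5924 CPM on day 12 in these cells, and their part in the difference was not tested.

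The sterol enzymes were lowest on day 10. Their sum in the other chondrocytes was 1136, 903, 361 and 700 CPM on days 7, 8, 10 and 12, and in hypertrophic chondrocytes 1396, 1312, 994 and 1345 CPM. In dividing chondrocytes it was 1524, 1331, 527 and 1533 CPM. Hmgcs1 in the other chondrocytes, for example, read 172, 147, 42.8 and 142 CPM. The day 10 library had 437 other chondrocytes, and globin UMIs, which free RNA can carry into any droplet, stood at 13251 CPM there against 926 CPM on day 7. Age and library cannot be told apart. The sum of the fatty acid genes did not show this dip in hypertrophic chondrocytes, where it was 1908, 2014, 2993 and 3120 CPM. Scd1 and Scd2, with the levels given above, made up a large part of it, so the sum does not stand for each gene.

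In dividing chondrocytes 4 of 32 members were at least 2-fold higher on day 12 and 1 was lower, beside 19.3% and 8.16% of 10624 genes. Scd1 had a log2 ratio of 1.74, Srebf1 of 1.46 and Idh1 of 1.20, Fasn went from 46.4 to 111 CPM, and Lss was at -1.20. In tendon or ligament cells, 2 of 33 members were higher and 10 lower, beside 6.50% and 22.4% of 12635 genes. In fibroblasts, 3 of 30 were higher and 8 lower, beside 14.4% and 9.62% of 10806 genes. Day 7 held 117 tendon or ligament cells and 75 fibroblasts, so these ratios rest on few UMIs. Against day 8, the counts were 3 higher and 3 lower in tendon or ligament cells and 3 higher and 4 lower in fibroblasts.

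**Figure D5:**
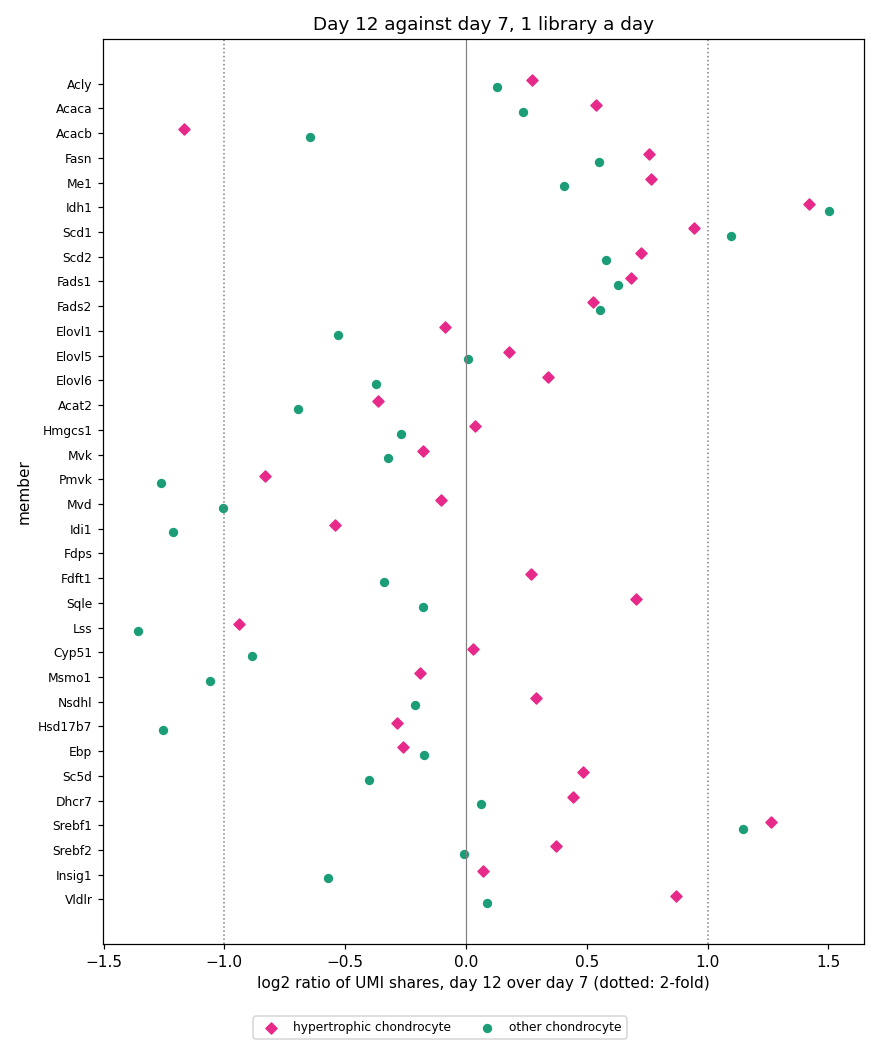
Log2 ratio of UMI shares on day 12 over day 7 for each member in hypertrophic (diamonds) and other (circles) chondrocytes, with dotted lines at 2-fold. Idh1 and Srebf1 lie right of the upper line in both classes, and Lss, Pmvk, Hsd17b7 and Idi1 lie left of the lower line in the other chondrocytes.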

How the data were processed

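Droplet single-cell 3' RNA libraries, 1 for each of postnatal days 7, 8, 10 and 12, were deposited by the authors as matrices of raw UMI counts per gene and cell. The build GRCm39 is named in the submitters' processing notes; no source used here names the counting program. Enzymatic digestion, straining and red cell removal came before encapsulation, per the labels' protocols; the same text names a bowel tumour tissue at the digestion step. Whether barcodes were filtered before deposit is not stated, although the lowest total was 500 UMIs.

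Barcodes were kept from 500 genes and 1000 UMIs upward, with up to 15% of UMIs from mitochondrial genes. Each cell was scored on 27 marker lists by the mean log2(1 + UMIs per 10000), relative to the median of the 100 highest cells. A class needed a relative score of 0.3 with 3 markers detected and 1.25 times the next class. This rule was set after marker scores and cell numbers were seen. No doublet caller was run: cells passing several gates were set aside, and leaving out the 5% of cells with most UMIs was an alternative. No free RNA was subtracted.

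Raw counts were summed per class and library (at least 20 cells) and tested with edgeR 4.0.16 (R 4.3.3), with TMM scaling, filterByExpr and library as a block; a log2 fold change is edgeR's estimate. The 4 libraries differ in age, so the spread between them holds both age and technical differences, and p-values measure only how steady a class difference was across these libraries. Log2 ratios per library add 1 UMI and use raw UMI totals without TMM scaling, so an estimate can lie outside them. The SE is the size of the log2 fold change divided by the square root of edgeR's F statistic. It is not the spread of the 4 library ratios. DESeq2 1.42.0, no filter, all classes in 1 fit, no block, a gate at 0.6, globin, mitochondrial and ribosomal genes left out and leaving out each library were alternatives; a 1.5-fold margin between classes, shared barcodes left out and matched UMI ranges were added after seeing the data. The edgeR step was tested on simulated data. Python 3.11.15 with scipy 1.17.1 gave exact 95% Poisson and binomial intervals.

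The members and all lists were chosen with earlier results of these data known. Genes were named where an adjusted p under 0.05 was reached, by size of fold and at most 12 per comparison in full; by day, members at least 2-fold different, at most 10 per class; for levels, the classes with the highest CPM; and at most 3 other pathway genes per list. Exceptions are members named because they were not called. Some genes of these lists are not reported here.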

Additional observations from a re-analysis of the deposited data

Results flagged for a closer look

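Among the 27, 18, 3 and 29 members called in the hypertrophic, dividing, osteoclast and chondrocyte against fibroblast comparisons, 3 had 1 library whose log2 ratio stood far from the other libraries. The criterion flags about 1 in 20 groups of 4 by chance. Scd1 in hypertrophic against other chondrocytes had a log2 ratio of 3.12 in the day 10 library and between 1.91 and 2.06 in the others. Scd2 in chondrocytes against fibroblasts read 2.45 on day 12 and between 1.73 and 1.80 otherwise. Idi1, the isomerase of isopentenyl diphosphate, read 1.22 on day 10 in the same comparison and between 2.50 and 2.73 otherwise. In each case the direction was the same in 4 of 4 libraries. The day 10 library held 552 chondrocytes, of which 115 were hypertrophic. On day 12 the hypertrophic cells were 1637 of 3981 chondrocytes, against 896 of 10455 on day 7 and 744 of 8168 on day 8. The part of this mix in the chondrocyte against fibroblast ratios was not tested.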

How the results depend on the processing

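The counts of members called in the class comparisons are sums over 4 libraries of different age. The classes compared were paired within libraries, with the library as the block; the labels' replicate numbers pair nothing, since each day has 1 library. Without the replicate block (library), members higher fell to 12 in hypertrophic and 1 in dividing chondrocytes, and 1 member was lower in chondrocytes against fibroblasts. With all classes in 1 fit, 8 members were higher in dividing chondrocytes and 1 was lower in chondrocytes against fibroblasts; DESeq2 also gave 1 there. With the gate threshold raised 2-fold, 1 member was lower in hypertrophic chondrocytes, 3 were higher in osteoclasts and 1 was lower in chondrocytes against fibroblasts. With no filter on low counts, 1 was lower in dividing chondrocytes. Leaving out 1 library at a time, members higher ranged from 22 to 27 (hypertrophic), 9 to 20 (dividing), 0 to 1 (osteoclasts) and 24 to 26 (chondrocytes against fibroblasts), and members lower in the last from 0 to 1. The cause was not tested.

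By day, the count of members higher and lower moved as follows. Against day 8, 4 were higher and 0 lower in hypertrophic, 1 lower in other and 0 lower in dividing chondrocytes, 3 lower in tendon or ligament cells and 4 lower in fibroblasts. At a 1.5-fold call, 9 were higher and 3 lower in hypertrophic, 8 higher and 2 lower in dividing chondrocytes, 5 higher and 17 lower in tendon or ligament cells, and 6 higher and 13 lower in fibroblasts. Median-of-ratios scaling took the median log2 ratio of all genes from 0.36 to 0.01 in hypertrophic chondrocytes. It gave 1 higher and 3 lower in hypertrophic, 1 higher in other, 2 higher and 2 lower in dividing chondrocytes, and 5 higher and 3 lower in tendon or ligament cells. Without hemoglobin, mitochondrial and ribosomal protein genes, 2 were lower in hypertrophic chondrocytes. With the stricter gate, 6 were higher and 0 lower in other and 7 higher and 0 lower in dividing chondrocytes, and 5 lower in fibroblasts. Of the members at least 2-fold different, log2 ratios reversed against day 8 for Acly (-0.11) and Ebp (-0.12) in tendon or ligament cells and for Insig1 (0.00884) and Acat2 (-0.60) in fibroblasts, where day 7 had 0 to 11 UMIs of these genes. Counting members under 2-fold too, the sign turned for 8 of 30 in fibroblasts, among them Sqle (0.44 to -1.22), and for 3 of 33 in tendon or ligament cells, 1 of 33 in hypertrophic, 6 of 33 in other and 6 of 32 in dividing chondrocytes. Of the named members' alternatives that left out no library, 812 kept direction and threshold and 115 kept direction only. Few cells limit days 7 and 8 for osteoclasts and macrophages and day 10 for chondrocytes.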

Other observations

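B lineage cells, which numbered 835 on day 10 and 896 on day 12, had fatty acid genes at 662 and 836 CPM in sum, against 221 and 327 CPM in early erythroid cells of the same libraries. The sums for B lineage cells were below those of hypertrophic chondrocytes, which were 2993 and 3120 CPM. Osteoblasts had all 34 members at 919, 1201, 1459 and 1698 CPM on days 7, 8, 10 and 12, from 21, 39, 74 and 823 cells. Fibroblasts read 1051, 1006, 1143 and 1134 CPM on the same days. The lowest and highest fibroblast values therefore lay closer together than those of osteoblasts. These values come from 1 library a day and were not tested.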
